A study of Mus musculus with 8 samples.

Results

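Open chromatin at the promoters of long non-coding RNA (lncRNA) genes was examined in 3 lists of ATAC-seq peaks from granule neuron progenitors (GNPs) of the mouse cerebellum. A peak belonged to the set when its summit lay within 1 kb of the start of any annotated lncRNA transcript and over 1 kb from every protein-coding start, on an autosome. This rule selected 7917 of 434365 peaks, with 2741 in the wild type (WT) list, 2047 in the heterozygous (het) list and 3129 in the mutant list. All mice were at postnatal day 7 and of the strain labelled C56Bl6/J, and GNPs were freshly isolated from pups of unrecorded sex on a Percoll gradient. Per the study's methods, WT animals were Chd7 f/f without Cre, het animals were Atoh1-Cre::Chd7 f/+ and mutant animals were Atoh1-Cre::Chd7 f/f, so that Cre was present in both Chd7-deficient groups and absent from WT. Chd7 is an ATP-dependent nucleosome remodeller, and Atoh1-Cre acts in the granule lineage but recombines less completely in the posterior lobe. The WT list pooled 3 libraries, the mutant list 3 and the het list 2, and the WT and mutant libraries are described as technical replicates. There was therefore 1 pooled measurement per genotype, no replicate error and no test between genotypes, and every interval given covers counting error over peaks or tags only.

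LncRNAs are transcripts without a long open reading frame, and many are made from promoters that resemble either a protein-coding promoter or an enhancer. Some act in the nucleus, some serve as hosts from which small nucleolar RNAs or microRNAs are cut, and imprinted ones such as Airn and Kcnq1ot1 silence neighbouring genes on the parental chromosome that makes them. In ATAC-seq the Tn5 transposase cuts DNA that is free of nucleosomes, so a peak at an annotated start marks accessible chromatin there and does not measure the RNA.

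The WT and mutant lists rested on 50394313 and 51030229 tags after duplicate removal and the het list on 30923002. Tags were extended by 90 bp in WT, 88 bp in mutant and 200 bp in het. The tag size, as the peak caller determined it from the aligned tags, was 107 bp in WT and het and 76 bp in mutant. Tag size and genotype therefore cannot be told apart between WT and mutant. Because of the longer extension, het tag counts are printed as given, unscaled, and their heights are not comparable with those of WT or mutant. Only the rank, the percentile of a peak's −log10 q among the autosomal peaks of its own list, was used to compare het with the others. A peak was found at the starts of 9 of 10 fixed GNP markers in WT (all but Zic2), at ranks of 71.6 to 91.96 for those with a peak. Peaks also stood at 3 of 3 astroglial, 3 of 4 oligodendrocyte, 3 of 4 Purkinje, 3 of 3 interneuron progenitor, 2 of 4 microglial and 3 of 3 endothelial marker starts, at ranks between 12 and 92.98, and the part of other cells in the lncRNA peaks was not tested. The tallest peak within 1 kb of a Chd7 start reached 57 tags in WT, 69 in het and 52 in mutant, which does not measure the deletion.

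The sequences under 9 WT peaks are examples of the members. At 4930519A11Rik, Gm13429, 4933434M16Rik, Gm16169 and 1700030L20Rik the annotated lncRNA start lies outside the window, 225 to 938 bp from the summit. Each is the 300 bp around the summit in GRCm38, read on the strand of the lncRNA, with matches to the motifs searched in capitals. Snhg6 is the CpG-dense promoter of a small nucleolar RNA host with a pair of ETS motifs (CCGGAAG), and 4930519A11Rik is a tall peak in the neighbourhood of the progenitor gene Mycn. Gm6712 and BC002059 are near-identical copies among the tallest peaks. The last 5 had a lower summit in the mutant list, and 3 of them, 1700030L20Rik, 4933434M16Rik and Gm13429, carry the E-box CAGATG, read as CATCTG on the other strand.
Snhg6, chr1:9944010-9944309 (minus strand): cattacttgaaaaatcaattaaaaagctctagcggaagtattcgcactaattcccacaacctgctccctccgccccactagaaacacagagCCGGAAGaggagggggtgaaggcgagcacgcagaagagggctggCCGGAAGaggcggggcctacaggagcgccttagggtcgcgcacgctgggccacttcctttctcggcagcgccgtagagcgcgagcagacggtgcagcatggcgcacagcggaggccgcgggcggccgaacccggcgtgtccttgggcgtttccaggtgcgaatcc
4930519A11Rik, chr12:12904691-12904990 (plus strand): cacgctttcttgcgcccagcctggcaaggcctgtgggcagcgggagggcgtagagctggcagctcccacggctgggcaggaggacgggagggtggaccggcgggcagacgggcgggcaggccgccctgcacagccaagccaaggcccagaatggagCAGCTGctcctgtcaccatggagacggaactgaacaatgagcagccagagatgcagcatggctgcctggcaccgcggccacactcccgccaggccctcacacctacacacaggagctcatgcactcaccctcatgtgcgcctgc
Gm6712, chr17:17294215-17294514 (plus strand): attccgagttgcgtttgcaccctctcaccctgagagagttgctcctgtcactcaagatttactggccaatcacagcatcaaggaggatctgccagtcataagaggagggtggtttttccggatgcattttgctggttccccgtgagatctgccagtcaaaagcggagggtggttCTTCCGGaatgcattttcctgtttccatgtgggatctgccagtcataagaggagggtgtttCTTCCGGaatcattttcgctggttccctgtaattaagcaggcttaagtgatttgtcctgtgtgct
BC002059, chr17:16951274-16951573 (plus strand): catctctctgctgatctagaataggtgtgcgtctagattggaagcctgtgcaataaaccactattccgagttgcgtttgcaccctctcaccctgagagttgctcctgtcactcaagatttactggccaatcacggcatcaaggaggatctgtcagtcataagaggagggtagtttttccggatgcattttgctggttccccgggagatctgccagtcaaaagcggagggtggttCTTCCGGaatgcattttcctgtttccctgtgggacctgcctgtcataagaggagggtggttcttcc
1700030L20Rik, chr3:136449424-136449723 (minus strand): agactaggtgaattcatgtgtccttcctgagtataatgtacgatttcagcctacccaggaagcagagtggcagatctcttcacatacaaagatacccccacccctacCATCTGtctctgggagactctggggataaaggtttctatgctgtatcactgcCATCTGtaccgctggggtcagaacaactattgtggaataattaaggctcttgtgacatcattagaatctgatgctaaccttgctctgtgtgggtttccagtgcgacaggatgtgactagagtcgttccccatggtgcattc
4933434M16Rik, chr11:112824214-112824513 (plus strand): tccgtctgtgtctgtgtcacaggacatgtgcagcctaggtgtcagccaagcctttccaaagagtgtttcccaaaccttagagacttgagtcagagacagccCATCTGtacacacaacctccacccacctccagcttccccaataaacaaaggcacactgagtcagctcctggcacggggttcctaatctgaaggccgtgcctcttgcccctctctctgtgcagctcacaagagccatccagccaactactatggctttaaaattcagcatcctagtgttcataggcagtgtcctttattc
Gm13429, chr2:36203460-36203759 (plus strand): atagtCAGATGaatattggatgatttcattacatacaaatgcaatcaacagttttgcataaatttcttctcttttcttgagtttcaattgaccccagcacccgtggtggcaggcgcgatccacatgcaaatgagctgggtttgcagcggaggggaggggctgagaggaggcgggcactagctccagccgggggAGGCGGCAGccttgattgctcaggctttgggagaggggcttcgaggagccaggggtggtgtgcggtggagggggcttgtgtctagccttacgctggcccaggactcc
A230059L01Rik, chr1:146805865-146806164 (minus strand): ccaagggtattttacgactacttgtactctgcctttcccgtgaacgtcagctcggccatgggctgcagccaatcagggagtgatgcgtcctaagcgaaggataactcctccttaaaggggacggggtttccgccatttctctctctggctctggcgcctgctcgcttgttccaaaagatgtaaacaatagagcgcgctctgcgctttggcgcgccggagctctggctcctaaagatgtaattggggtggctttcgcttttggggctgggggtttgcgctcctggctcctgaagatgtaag
Gm16169, chr17:10806746-10807045 (plus strand): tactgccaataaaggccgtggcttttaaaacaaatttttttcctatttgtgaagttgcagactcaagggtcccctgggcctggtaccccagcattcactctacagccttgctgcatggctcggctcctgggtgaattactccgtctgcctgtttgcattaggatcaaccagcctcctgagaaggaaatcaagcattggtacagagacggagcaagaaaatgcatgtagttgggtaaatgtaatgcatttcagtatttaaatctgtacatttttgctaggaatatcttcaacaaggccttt

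In WT, peaks at lncRNA promoters were weaker and narrower than those at protein-coding promoters and a little stronger than peaks away from both. Their median −log10 q was 7.68 (quartiles 4.15 to 17.4), against 18.7 for 21111 protein-coding promoter peaks and 6.07 for 125785 other autosomal peaks. The median summit pileup, the number of extended tags over the summit, was 20 at lncRNA promoters, 36 at protein-coding promoters and 15 elsewhere. The median width was 254 bp, against 557 bp and 194 bp. A −log10 q of 10 or more was reached by 41.6% of lncRNA promoter peaks (Wilson 95% interval 39.7 to 43.4), by 64.2% of protein-coding promoter peaks and by 31.8% of the others. The median rank of lncRNA promoter peaks was 55.1 in WT, and their median ranks in the other 2 lists were 56.1 (het) and 55.7 (mutant). They made up 1.83%, 1.96% and 1.84% of the autosomal peaks of these lists.

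**Figure D1:**
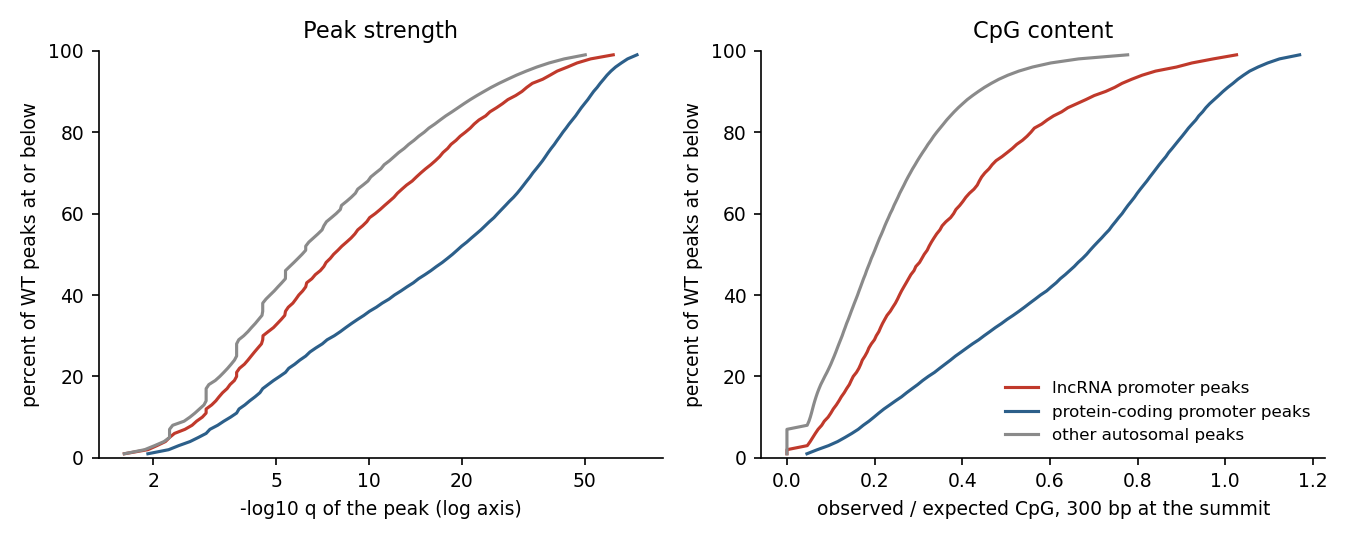
Cumulative distributions over WT peaks of −log10 q (left, log axis) and of the ratio of observed to expected CpG in 300 bp at the summit (right), drawn from percentiles 1 to 99. Peaks at lncRNA promoters run between the other 2 classes on both measures, with medians of 7.68 and 0.31.

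Most annotated lncRNA genes had no peak at a start. A member peak stood within 1 kb of a start of 2289 of 9426 autosomal lncRNA genes in WT (24.3%, 23.4 to 25.2), while 14729 of 20807 protein-coding genes (70.8%) had a peak at a start. With peaks within 1 kb of a protein-coding start counted too, 3745 lncRNA genes had one (39.7%, 38.8 to 40.7). Among the 7699 lncRNA genes with at least 1 start over 1 kb from protein-coding starts, the share was 29.0%. The het list reached 1879 lncRNA genes and the mutant list 2455. Of the 2809 lncRNA genes with a member peak in any list, 1660 had one in all 3 lists. When each peak was assigned to its nearest start, 423 of 2222 WT genes had 2 or more member peaks, so peaks of 1 gene are not independent.

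The base composition of the members was mixed. A window was called CpG-rich when its GC content was at least 50% and its ratio of observed to expected CpG at least 0.6. This was met by 396 of 2741 WT lncRNA promoter peaks (14.5%, 13.2 to 15.8), by 57.05% of protein-coding promoter peaks and by 2.16% of the other peaks. The share at lncRNA promoters minus that at protein-coding promoters was −42.6 percentage points (Newcombe 95% interval −44.0 to −41.1), and minus that of the other peaks it was 12.3 points (11.02 to 13.7). CpG-rich members had a median −log10 q of 13.7 and a median width of 494.5 bp, and the 2345 remaining members 7.21 and 232 bp. CpG-rich members also lay nearer to protein-coding starts, with a median distance of 14.8 kb against 40.5 kb. Genes of the GENCODE type processed_transcript had the largest CpG-rich share of the types with at least 50 peaks, at 24.3% (19.8 to 29.5), followed by antisense genes at 16.4% and lincRNA genes at 12.2%.

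Motif content differed between the CpG-rich members and the rest, but the class is defined by GC and CpG in the same windows. GGGGCGGGG and CCGGAAG contain CG and the E-boxes CAGATG and CAGCTG do not. The direction of these contrasts therefore follows in part from the class definition. The SP and KLF box GGGGCGGGG was found on either strand in 15.4% of CpG-rich members (12.2 to 19.3) and 2.30% of the rest, beside 16.1% of protein-coding promoter peaks. The ETS motif CCGGAAG was found in 9.09% and 2.94%, beside 11.5% at protein-coding promoters. The E-boxes, which are bound by basic helix-loop-helix factors such as Atoh1 and Neurod1, ran the other way. CAGATG was in 13.4% of CpG-rich members and 33.9% of the rest, beside 17.6% of protein-coding promoter peaks and 37.9% of the other peaks. CAGCTG was in 20.5% and 31.9%, beside 22.0% and 29.6%. For GCGCATGC (NRF1) the members as a whole held 1.17%, for AAGATGGC (YY1) 1.496%, for TGACGTCA (CRE) 1.06% and for TATAAA 8.98%, each but the last below the share at protein-coding promoters by an interval that excluded 0. For the ZIC motif CCTGCTGNG (4.41%) and the CTCF core AGGNGGCAG (5.29%) the members and the protein-coding promoters differed by less than the interval. No motif in this set contains another, and a match of letters is not evidence that a factor was bound.

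Summits gathered just upstream of the annotated start. The 100 bp before the start held 506 WT summits and the 100 bp after it 285, while the bins beyond 500 bp on either side held 69 to 101 each. In all, 42.1% of WT summits lay within 200 bp of a start, and 54.8% lay upstream. Peaks within 200 bp had a median −log10 q of 9.77, and those from 500 to 1000 bp had 6.63. The CpG-rich share was 20.2% (17.5 to 23.1) within 100 bp and 10.1% (8.20 to 12.3) beyond 500 bp. Among all WT members, 65.4% belonged to lncRNA genes lying between protein-coding genes, 30.4% to genes on the opposite strand of one and 4.16% to genes on the same strand as one. The median distance to the nearest protein-coding start was 35262 bp.

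**Figure D2:**
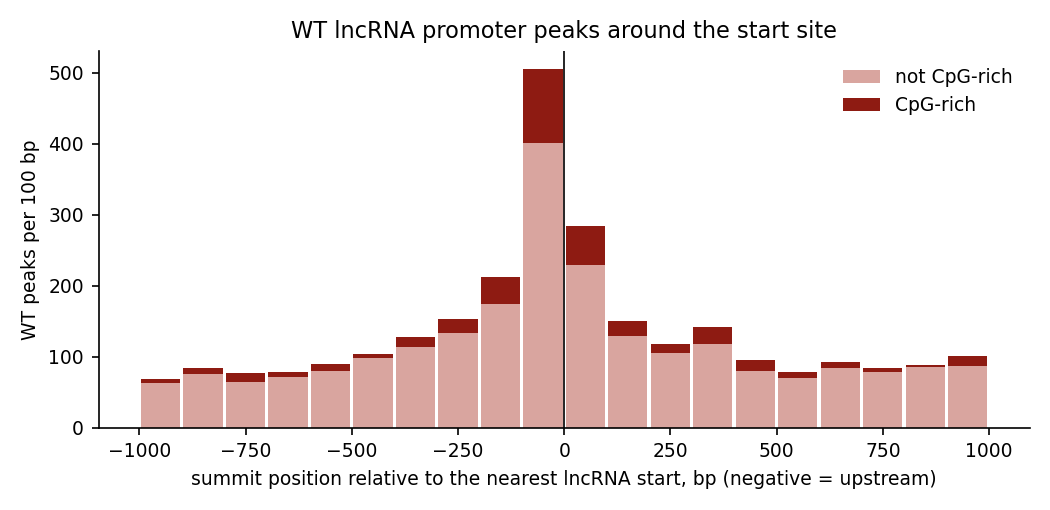
Number of WT lncRNA promoter peaks by the position of the summit relative to the nearest lncRNA start, in bins of 100 bp, with negative values upstream. The bar just before the start reaches 506 peaks and the one just after it 285, and dark segments are CpG-rich peaks.

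The tallest WT members had similar heights in the WT and mutant lists. Gm26917 and AY036118, at a chromosome 17 locus that carries ribosomal RNA sequence (chr17:39843050-39848791 over both peaks), reached 142 and 141 tags in WT, 276 and 270 in het and 142 and 143 in mutant. Their fold enrichment over the local background was only 2.07 and 2.30 in WT, against 7.49 to 17.1 at the 6 next tallest. Gm6410 had 112 tags in WT and 113 in mutant, 1700028E10Rik had 107 and 106, and Gm26901 had 102 and 109. Gm6712, Gm5165 and BC002059, all on chromosome 17, had 105, 104 and 101 tags in WT, 144, 129 and 160 in het, and 108, 102 and 105 in mutant. Over the aligned part of 600 bp at the summits, Gm6712 matched Gm5165 at 511 of 538 bases and BC002059 at 508 of 530 (95.8%), and Gm5165 was 93.9% identical to BC002059, so reads may be shared between these copies and their heights are uncertain. The summits of Gm26917 and AY036118 were 350 and 353 bp apart between the lists, so that their ratios do not compare the same position, and the other 6 were within 112 bp. The log2 ratio of mutant to WT height, each divided by the tags of its list, ranged from −0.05 to 0.08 over these 8 genes, and each counting interval of the fold included 1.

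Some members lay beside genes that mark GNPs, and 2 of these were tall. The peak of 4930519A11Rik, 35.8 kb from the start of Mycn, an oncogene induced by Sonic hedgehog in these progenitors, had 96 tags in WT, 175 in het and 98 in mutant, at WT rank 98.7. The peak of 2610035F20Rik, whose summit lay 1.14 kb from a start of the zinc finger factor Zic2, had 96, 168 and 94. It covered chr14:122473897-122475544, and whether it is separate from the Zic2 promoter was not tested. Zic2 was also the GNP marker scored without a WT peak. At Gm26755, 2.39 kb from the neurogenic factor Neurod1, the heights were 43 in WT, 65 in het and 34 in mutant. Paupar, transcribed from upstream of Pax6, had its taller member at 35 tags in WT, 50 in het and 42 in mutant. Gm26755 and Paupar were of middling strength, at WT ranks of 57.9 and 54.1. These 4 had log2 ratios of mutant to WT between −0.36 and 0.24. The shorter Paupar member stood at −0.2 and 2 weaker ones, with 17 tags each in WT, at −0.52 (Gm47200 near Gli1) and 0.29 (Platr19). In all, 8 WT members had a GNP marker as the nearest protein-coding start, and 1 of them, Gm13954 near Pax6 with 16 tags in WT, overlapped no mutant peak. The share without a mutant peak was 16.9% over all WT members and 23% over all WT autosomal peaks.

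Among lncRNAs that work in the nucleus or in every cell, 9 of 14 autosomal genes on the list were members in WT and in mutant. Malat1, the abundant RNA of nuclear speckles, had 36 tags in WT, 43 in het and 47 in mutant. Neat1, which builds paraspeckles, had 33, 30 and 36. Pvt1, the neighbour of Myc, had 38, 46 and 43, and 2900097C17Rik, the mouse Norad, had 31, 20 and 24. By the tallest member of each gene, none of the 8 genes in the height comparison passed 1.5-fold, and the log2 ratios spanned −0.39 to 0.37. Over all 962 member pairs 1.56% were that much lower and 5.61% higher, so 8 genes are too few to set this list apart. Tug1, Zfas1, Gas5 and Rmrp had peaks only within 1 kb of a protein-coding start, and Meg3 had none at its starts in any list.

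Small nucleolar RNA hosts included some of the strongest members. Of 16 autosomal genes, 8 were members in all 3 lists and 7 had peaks only within 1 kb of a protein-coding start. Snhg6 had 87 tags in WT, 143 in het and 96 in mutant, at WT rank 99.8. Snhg8 had 97, 184 and 107, and Dancr had 75, 99 and 83. The 7 genes compared had a median log2 ratio of −0.02 (range −0.17 to 0.13). Of the 68 lncRNA genes annotated to hold a small nucleolar RNA, 30 were members in at least 1 list, and in none of the 17 compared did the tallest member pass 1.5-fold. Over all 962 member pairs 1.56% were that much lower and 5.61% higher, so 17 genes are too few to set these hosts apart.

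All 9 autosomal microRNA hosts on the list were members in the mutant list and 7 in WT. Over all autosomal lncRNA genes, 453 of the 2455 with a mutant member had none in WT. Mir22hg, a member in mutant alone, had a peak within 1 kb of a protein-coding start in all 3 lists. Its mutant member, with 23 tags, lay just past that limit, 1092 bp from a protein-coding start. Mir124-2hg, a source of the neuronal microRNA miR-124, had 62 tags in WT, 86 in het and 61 in mutant. Mir9-3hg, a host of miR-9, had 38, 54 and 39. Mir17hg, which gives rise to a growth-promoting microRNA cluster, had 77 in WT and 87 in mutant, and the het list had no member there. The tallest of 10 WT members at Mir99ahg had 72 tags in WT, 108 in het and 74 in mutant. At the tallest members of the 7 genes compared, log2 ratios spanned −0.04 to 0.23, while another Mir99ahg member stood at 0.85. Of the 111 lncRNA genes annotated to hold a microRNA, 60 were members, and in none of the 34 compared did the tallest member pass 1.5-fold. Lesser members did at Gm20732 (31 tags in WT and 92 in mutant, summits 882 bp apart), Mir99ahg and 3110039I08Rik (log2 0.59), all higher in mutant. Over all 962 member pairs 1.56% were over 1.5-fold lower and 5.61% higher.

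Of 9 autosomal imprinted lncRNAs, 4 were members in WT. Kcnq1ot1 had 54 tags in WT, 87 in het and 60 in mutant. Airn had 30, 43 and 26, Peg13 had 47, 65 and 43, and Nespas had 67, 106 and 72. Their log2 ratios lay between −0.22 and 0.13. Meg3, Rian and H19 had no peak at their starts, and Mirg had member peaks only in the mutant list, 2 in number, the taller with 19 tags. Of the 2455 autosomal lncRNA genes with a mutant member, 356 had members in that list alone.

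Of 24 autosomal names on the neural list, 17 had a WT member, 11 a het member and 16 a mutant member, while 2 of the names, Mir124a-1hg and A930011O12Rik, are 1 gene. Sox2ot, which overlaps the progenitor gene Sox2, had 30 tags in WT, 40 in het and 35 in mutant at its tallest member. 2610307P16Rik had 68, 96 and 74, and Zfhx2os had 72, 102 and 67. C130071C03Rik, which holds a miR-9 gene, had 81, 124 and 83. The 12 names compared had log2 ratios of −0.22 to 0.33. Sox1ot (16 tags), Nkx2-2os (18) and Otx2os1 (15) were members in WT and not in mutant, and Six3os1 (18) and Pax6os1 (34) in mutant and not in WT. Over all autosomal lncRNA genes, 287 of 2289 with a WT member had none in mutant, and 453 of 2455 the reverse.

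LncRNAs of other brain regions or tissues were members at 6 of 19 genes in WT, 3 in het and 5 in mutant. Hotair, Hottip, Dlx1as and Dlx6os1 had no peak at their starts in any list. Hoxd3os1, in the HoxD cluster, had 29 tags in WT and 27 in mutant, Rmst, a midbrain lncRNA, had 31 and 27, and Hoxaas2 had 13 and 14. Haglr (12 tags), Otx2os1 and Nkx2-2os were members in WT and not in mutant, and Bvht (16) and Six3os1 in mutant and not in WT. The counts over all autosomal lncRNA genes were 287 of 2289 and 453 of 2455.

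Most WT members overlapped a mutant peak, and those that did not were weak. Of 2741 WT members, 2278 overlapped a mutant peak by at least 1 bp (83.1%, 81.7 to 84.5). The 463 without one made up 16.9%, against 23% of all WT autosomal peaks. The shared percentage minus that at protein-coding promoters was −8.32 points (−9.82 to −6.91), and minus that of the other peaks it was 8.63 points (7.16 to 10.01). The share without a partner was smaller at each higher strength. It was 0 of 566 WT members at a −log10 q of 20 and above (upper Wilson bound 0.674%) and 2 of 573 between 10 and 20. Strong peaks of the other classes were shared alike, with 0 of 10127 and 7 of 3421 without a partner at protein-coding promoters. For other autosomal peaks it was 4 of 16758 and 232 of 23226. Among the members, the percentage without a partner was 9.75 between 5 and 10, 37.8 between 3 and 5, and 53.7 below 3. Within each of these bins below 10, the members lay below the other autosomal peaks, at 14.1, 42.1 and 65.2%, where the interval of each difference excluded 0. Protein-coding promoters stood at 8.27, 29.1 and 51.7%, and the interval of the difference from the members excluded 0 only between 3 and 5.

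In the reverse direction, 770 of 3129 mutant members (24.6%) overlapped no WT peak, against 30.8% of all mutant autosomal peaks. Above a −log10 q of 20 this was 0 of 650, and 8 of 638 between 10 and 20. Protein-coding promoters had 0 of 10687 and 32 of 3704, and other peaks 8 of 19475 and 701 of 27128. Between 5 and 10, between 3 and 5 and below 3, 19.5, 53.9 and 71.5% of members had no WT peak. Protein-coding promoters stood at 15.8, 43.7 and 60.1%, and the interval of each difference from the members excluded 0. Other peaks stood at 26.1, 60.6 and 75.5%, where the interval of the difference included 0 only below 3. By gene, 287 of the 2289 lncRNA genes with a WT member had none in mutant, and 453 of the 2455 with a mutant member had none in WT. A summit that moves past a 1 kb limit also changes membership, so these are not counts of lost or gained peaks. The matching counts for protein-coding genes were not made. The mutant list was the longest of the 3 in all classes.

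**Figure D3:**
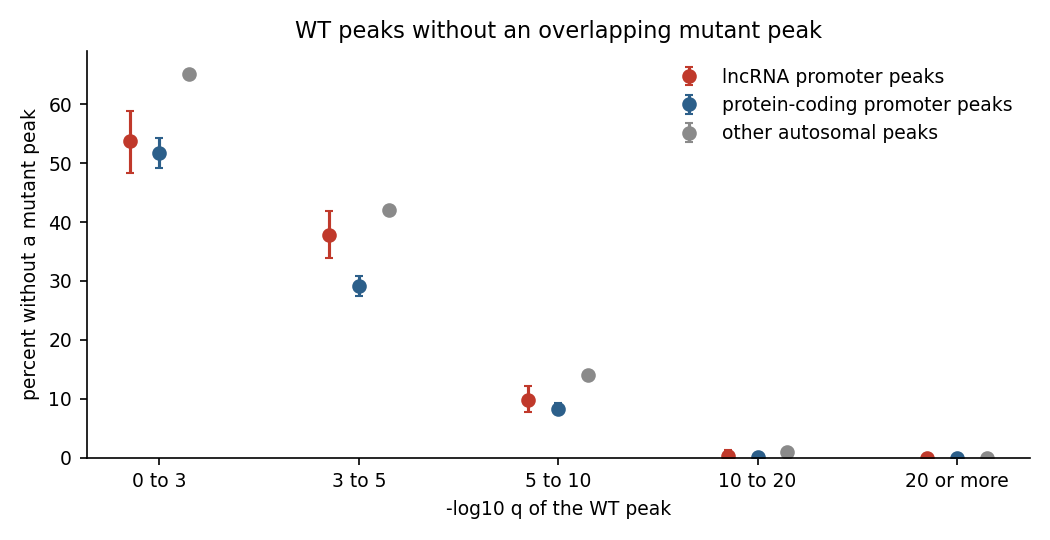
Percentage of WT peaks without an overlapping mutant peak, by −log10 q of the WT peak, for the 3 classes, with Wilson 95% intervals over peaks. The percentage at lncRNA promoters runs from 53.7 in the weakest bin to 0 in the strongest.

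The het list held a partner for 71.3% of WT members and 67.5% of mutant members; 37% of all WT and 41.4% of all mutant autosomal peaks had none. A het peak stood at 76 of the 463 WT members that no mutant peak overlapped (16.4%, 13.3 to 20.1) and at 82.5% of the 2278 others. For peaks without a mutant partner it was 23.0% at protein-coding promoters and 12.5% elsewhere. Of the 770 mutant members without a WT peak, 161 had a het peak (20.9%, 18.2 to 23.9), beside 25.03% at protein-coding promoters and 14.5% elsewhere. Conversely, 90.2% of het members overlapped a WT peak and 93.1% a mutant peak, beside 86.7% and 89.3% of all het autosomal peaks. The het list was called from fewer tags and libraries and with another extension, and genotype cannot be told apart from these settings.

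The heights of shared members differed little between WT and mutant. In the 962 pairs with at least 30 tags in 1 list, the median log2 ratio of mutant to WT summit pileup, scaled to the tags of each list, was 0.07 (quartiles −0.09 to 0.24), against 0.06 over all 41306 shared autosomal pairs and 0.06 at protein-coding promoters. The mutant summit was over 1.5-fold lower in 15 pairs (1.56%), against 2.48% of all pairs, and over 1.5-fold higher in 54 (5.61%), against 6.05%. Protein-coding promoters had 0.284% and 3.65%. By fold enrichment 5 of the 962 were lower (0.52%, against 1.09%), so 10 of the 15 did not pass on that measure, among them A230059L01Rik, Gm16169, 1700030L20Rik and Gm43948. A pair needed 30 tags in 1 list alone, so a pair with a large difference could enter through its taller side. With a mean of at least 30 tags over both lists, chosen after the pairs were seen, 10 of 827 were lower (1.21%, against 1.37%) and 24 higher (2.90%, against 2.98%). In 19 of the 54 higher pairs and in none of the 15 lower ones, the 2 summits were over 150 bp apart, so the pair did not compare the same position. Among the 790 pairs that overlapped one to one with summits within 150 bp, a choice made after the pairs were seen, 12 were lower (1.52%, against 2.6%) and 35 higher (4.43%, against 4.61%). Taking each pileup as a count, the exact 95% interval of the fold lay wholly below 1 in 6 of the 790 pairs (0.759%) and wholly above it in 8 (1.01%), against 1.11% and 1.43% of all such pairs.

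**Figure D4:**
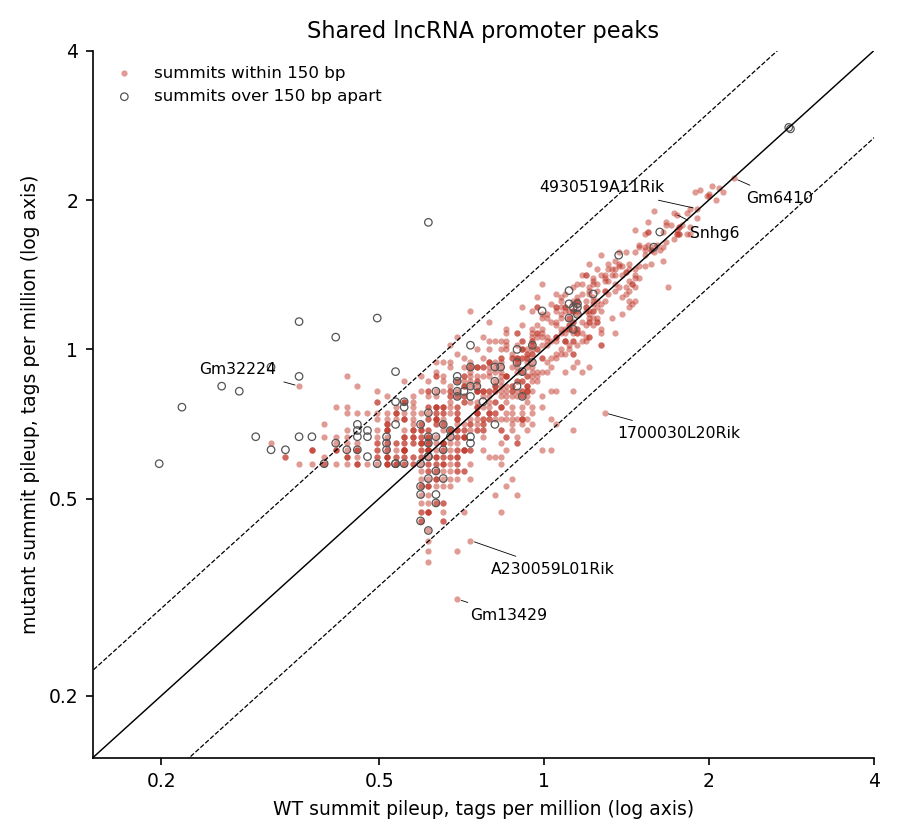
Summit pileup of the 962 shared lncRNA promoter pairs in WT and mutant, scaled to the tags of each list, both axes logarithmic, 1 point per WT peak. The solid line marks equality and the dashed lines 1.5-fold, and open circles are pairs with summits over 150 bp apart, which hold 19 of the 54 pairs above the upper dashed line.

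The 8 pairs with the lowest mutant height relative to WT had 31 to 65 tags in WT. Gm13429, 26.8 kb from Ptgs1, had 35 tags in WT, 31 in het and 16 in mutant, a log2 ratio of −1.15 (counting interval −2.10 to −0.26). A230059L01Rik, whose summit lay 7 bp from its start, had 37 tags in WT, 16 in het and 21 in mutant (−0.84, −1.68 to −0.02), at rank 89.4 in WT and 35.4 in het. This was the lowest het rank among the 7 of these pairs with a het peak. The peak of 4933434M16Rik, 42.1 kb from Sox9, a gene of glia and neural stem cells, had 42, 42 and 24 (−0.83).

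1700030L20Rik was the tallest of the 8, with 65 tags in WT, 80 in het and 38 in mutant (−0.79, −1.41 to −0.19). AC122818.3 had 45, 40 and 26 (−0.81), and Gm43948, on the opposite strand of a protein-coding gene, had 57, 66 and 35 (−0.72). Gm47018, 6.0 kb from a start of the glutamate receptor gene Grik2, had 31 tags in WT and 19 in mutant (−0.72, −1.63 to 0.15) and no overlapping het peak. Gm16169 had 35, 32 and 20 (−0.83, −1.70 to 0.01). The counting interval included equality at Gm47018 and Gm16169 and excluded it at the other 6, which were picked as the lowest of 962 ratios, so that these intervals are a description and no test.

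The 8 pairs with the highest mutant height relative to WT were 1700015H07Rik, Gm29266, A830019P07Rik, Gm47948, A130077B15Rik, Gm20732, Gm26660 and Gm13748, with log2 ratios from 1.34 to 1.81. In each the WT summit (10 to 31 tags) stood 433 to 882 bp from the mutant summit, so the heights belong to different positions. With one-to-one pairs and summits within 150 bp, the highest ratios were smaller. Gm32224 had 18 tags in WT, 34 in het and 43 in mutant (1.24, 0.41 to 2.12), Gm16325 had 16, 34 and 33 (1.03), and Gm32050 had 22, 26 and 45 (1.01). Bach2it1, 3.54 kb from a start of the transcription factor gene Bach2, had 21, 38 and 39 (0.87). Mir99ahg, whose tallest member is given above, had another member at 17, 33 and 31 tags (0.85, −0.05 to 1.79). Gm32224, Gm16325, Gm32050, Bach2it1 and this Mir99ahg member entered the height comparison only through their mutant height. Their WT heights were below the tag minimum. These pairs were also picked for their high ratios, so that their intervals are a description and no test.

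The E-box CAGATG was met more often in the lower pairs. It was present in the WT window of 9 of the 15 lower and 10 of the 54 higher pairs. Of the 297 member pairs with the motif, 9 were lower (3.03%, 1.60 to 5.66) and 10 higher (3.37%). Of the 665 without it, 6 were lower (0.902%, 0.414 to 1.95) and 44 higher (6.62%). The difference was 2.13 points for the lower pairs (0.354 to 4.80) and −3.25 points for the higher ones (−5.89 to −0.0686). Of 239 CpG-rich member pairs, 1 was lower (0.418%) and 3 higher (1.255%). Of the 723 remaining pairs, 14 were lower (1.94%) and 51 higher (7.05%). The motif is less common in CpG-rich members, and the contrast by motif was not separated from CpG class. Of the 20 comparisons by motif and direction, 3 had an interval that excluded 0, the third being TATAAA among the higher pairs, and the intervals are not adjusted for their number. Over all shared autosomal pairs the motif went with 4.45% lower pairs against 1.48% without it, a difference of 2.97 points (2.60 to 3.35), and nothing here is particular to lncRNA promoters. At protein-coding promoters the motif went with more lower pairs (0.871 points, 0.488 to 1.45) and also with more higher pairs (1.45 points, 0.489 to 2.58). With one-to-one pairs and summits within 150 bp, the differences among members were 1.81 points for lower (−0.0628 to 4.67) and −2.49 points for higher pairs (−5.12 to 0.741), and both intervals include 0. Since some of these pairs entered the height comparison only through their taller list, the contrast was repeated with a mean of at least 30 tags. Then 7 of 263 pairs with the motif and 3 of 564 without it were lower, a difference of 2.13 points (0.424 to 4.88), and the difference for higher pairs was −0.353 points (−2.58 to 2.60).

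**Figure D5:**
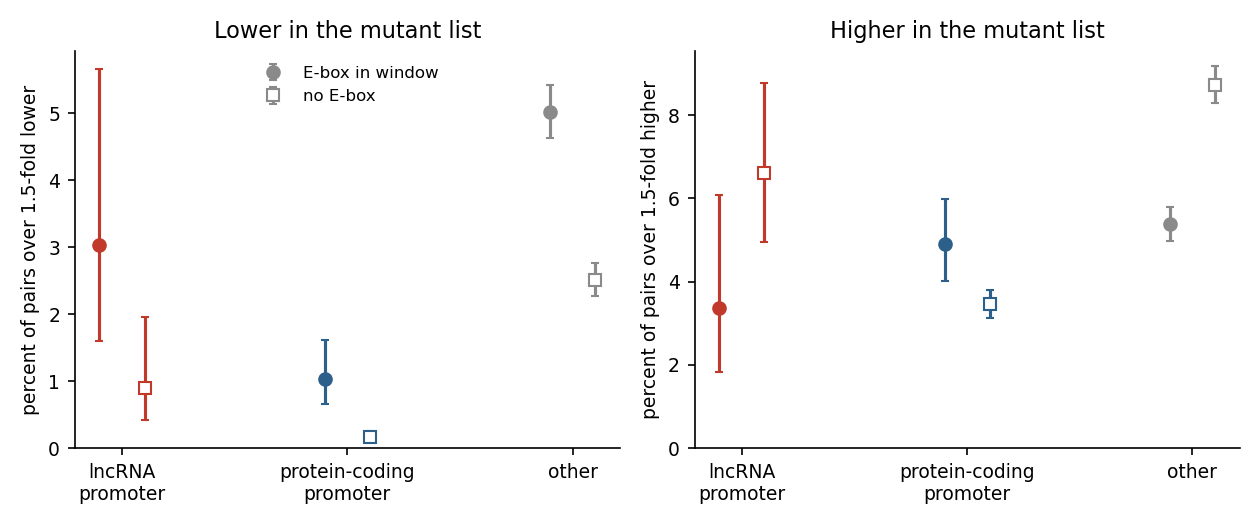
Percentage of shared pairs over 1.5-fold lower (left) or higher (right) in the mutant list, with the E-box CAGATG in the 300 bp WT window (filled circles) or without it (open squares), with Wilson 95% intervals. At lncRNA promoters 3.03% of pairs with the motif and 0.902% without it were lower.

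Peaks found in 1 list alone were weak. No peak of the other lists lay within 300 bp of 289 WT members (10.5%), against 17% of all WT autosomal peaks, and none of the 289 reached a −log10 q of 10. Such peaks were seldom that strong in any class, at 3 of 864 at protein-coding promoters and 126 of 24232 elsewhere. The strongest members were Gm30363 near Kat6b with 16 tags (−log10 q 9.04), Gm43848 with 16 (8.44), Gm30648 near Cxxc4 with 16 (7.86), Gm12315 with 15 (7.52) and Gm34105 with 14 (7.14). Of mutant members, 456 stood alone (14.6%), against 22.6% of all mutant peaks, and 2 reached 10. In the other classes 15 of 1407 lone mutant peaks at protein-coding promoters and 385 of 36558 elsewhere did. Gm45069, near Zfp667, had 41 tags (13.4) and AC132133.3 had 17 (10.1). Gm11696 had 26, A430106G13Rik 17 and Gm48302 16, with −log10 q of 8.82 to 9.96.

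The study lists genes with lower RNA in homozygous mutant GNPs. That list was chosen on the same kind of cells and is not independent evidence. It named 10 autosomal lncRNA genes, of which 5 had a member peak, 3 of them in WT and 5 in mutant. Gm16169, with 3 members in WT and 4 in mutant, had the lower pair given above. Gm26794, 1041 bp from the potassium channel gene Kcnj3, had 30 tags in WT and 28 in mutant. Gm2694, 30165 bp from a start of the synaptic organiser gene Cbln1, had 12 and 11. A430106G13Rik and Gm3985 had members only in the mutant list, with 17 and 8 tags, as had 356 of the 2455 autosomal lncRNA genes with a mutant member. Protein-coding genes of that list were the nearest to 38 WT members at 27 genes. Of these members, 9 had no mutant peak (23.7%, 12.99 to 39.2), beside 16.8% of the other members and 23% of all WT autosomal peaks. The 11 pairs tall enough to compare had a median log2 ratio of −0.12, with a range of −0.72 to 0.66, beside 0.07 for the others. Of the 11, 1 was lower (Gm47018) and 3 were higher. Among the higher was Gm31107 near the neurofilament gene Nefl, with 34 tags in WT and 52 in mutant. The other members had 14 lower and 51 higher of 951, and all shared autosomal pairs had 2.48% and 6.05%. AC121600.1 gave pairs at −0.17 and at 0.66, so the 11 are not independent.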

How the data were processed

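The 3 deposited lists hold narrow peaks that the authors called with MACS2 2.1.0.20150731 on the pooled libraries of each genotype, with no control and a q-value cutoff of 0.05, on mm10. Per the file headers, WT and mutant alignments came from STAR without shift and het alignments from bowtie with a shift. The submitters' notes also name Trim Galore 0.4.1, Picard 1.139, STAR 2.5.0b and Bowtie 1.0.0. Of the columns deposited by the authors, summit pileup is a signal in extended tags not scaled to depth, fold enrichment is a ratio to the local background, and −log10 q is as MACS2 gave it (the −log10 p column was not used). No column holds a single library, so pooled lists were compared.

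Starts were those of every transcript in GENCODE M21 (GRCm38) of protein-coding genes or of 8 lncRNA types. Pileup was divided by the tags after filtering of its list. The partner of a WT peak was the overlapping mutant peak of the highest pileup, and a pair needed 30 tags in 1 list. Shares have Wilson and differences Newcombe 95% intervals (scipy 1.17.1). Sequences are from GRCm38.p6, within whose chromosome lengths all autosomal peaks fell. Named genes are the 8 tallest in WT, the 8 lowest and 8 highest height ratios, the 5 strongest peaks of WT and of mutant with no other peak within 300 bp, and examples of the lists; the near-marker members and the one-to-one pairs came later. The members, lists and tests were chosen with earlier results of these data known. Scripts were tested on simulated lists.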

Additional observations from a re-analysis of the deposited data

Results flagged for a closer look

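Sex chromosomes were outside the rule. At the start of Xist, the lncRNA that silences one X chromosome in female cells, the WT list held no peak, while the het list had a peak of 31 tags (−log10 q 8.95) and the mutant list one of 24 tags (7.45). These were flagged as signal on a chromosome not used above, absent from the WT list. The Y chromosome held 36 WT, 13 het and 25 mutant peaks. The sex of the pups was not recorded, and the part of sex in these values was not tested.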

How the results depend on the processing

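No paired analysis was possible because each list pools its libraries, and for the same reason no library could be left out. The number of members stayed within 1.5 times under every alternative run (gene-model starts, a 500 bp window, TEC genes, a −log10 q of 5), and the median log2 ratio was 0.05 to 0.08 under every alternative run for it. Shares moved with what counts as shared. Within 300 bp they were 87.5% (WT in mutant), 81.5% (mutant in WT), 75.2% (WT in het) and 72.6% (mutant in het). With 50% reciprocal overlap they were 68.7, 60.2, 55.4 and 50.1%, and for query peaks with a −log10 q of at least 5 they were 96.2, 92.1, 87.7 and 84.0%. With that limit on both sides, WT in mutant was 88.7% and mutant in WT 80.5%, and with a 500 bp window 85.1 and 77.9%. By fold enrichment 5 pairs were lower. Centred on the median of all pairs (0.06), 19 were lower and 38 higher, beside 15 and 54 as reported. At 2-fold 1 pair was lower and 14 higher. With no minimum height 61 were lower and 187 higher. One-to-one pairs with summits within 150 bp, added after seeing the data, left 35 higher, and a mean of at least 30 tags over both lists, also added then, left 24 higher. All 15 lower pairs were also below 0 by fold enrichment. Depth limits single pairs, since 30 tags give wide counting intervals.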
